A study of Mus musculus with 94 samples.

Results

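The cortex-leaning tubule probes described here were 100 of the 20175 probes counted in digital spatial profiling of mouse kidney. They were chosen by their tubule counts, as the probes with the deepest loss on day 14 after ischemia-reperfusion injury (IRI) among those read more in cortex than in medulla. In GeoMx digital spatial profiling, a probe hybridizes to 1 target RNA on a tissue section, its barcode is released by UV light from an outlined segment, and the barcodes are counted as UMIs. Levels below are log2(CPM + 1), where CPM is a probe's counts scaled to a common total (1000000) and 1 is a pseudocount. The quantities d1, d7, and d14 were the mean tubule level in vehicle-treated injured kidneys on days 1, 7, and 14 minus the mean in control kidneys. A member had a d14 of -0.75 or less, a d14 below both d1 and d7, and a mean cortex minus medulla difference above 0 over the 14 sections, and the 100 with the lowest d14 were taken, leaving aside 3 probes named in the rule, 0 of which met it. Of all probes, 704 lay at or below -0.75, 660 of these were also lowest on day 14, and 553 met every threshold. The files pair probes with no gene names, so members are described by number, rank, and probe identifier, and the proteins they encode are not given here.

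C57BL/6 male mice received entospletinib, an inhibitor of spleen tyrosine kinase (SYK), or its vehicle before unilateral IRI, with dosing continued afterward in the day 7 and day 14 groups, and kidneys were taken on days 1, 7, and 14. The groups were I1V, I7V, and I14V (vehicle), I1E, I7E, and I14E (entospletinib), and CTRL, which the labels describe as uninjured contralateral kidneys, without stating what those mice received, and the methods as contralateral kidneys or kidneys of healthy mice. Each group had 2 sections, told apart by the prefix of the labels, and the labels do not state that a section is 1 mouse, so p-values measure only the spread between these sections. Tubule segments were outlined on panCK and CD10 staining and macrophage segments on IBA1 staining, in 1 medullary and 2 cortical regions per section, or 2 of each on day 14. The stains could not be checked against marker genes.

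The renal cortex is filled mostly by proximal tubules, whose brush border carries CD10 and which take back glucose, amino acids, phosphate, and low molecular weight proteins from the filtrate. The outer medulla holds the straight end of the proximal tubule beside the thick ascending limb, and deeper medulla holds thin limbs and collecting ducts. Ischemia injures the straight proximal tubule most, and injured proximal tubule cells lower the transport and metabolic genes that mark them. A segment is a bulk sample, so fewer cells of a type and less RNA per cell cannot be told apart in any value below.

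Tubule sums of a section held 9404235 to 25729550 counts and macrophage sums 117693 to 2773456. The macrophage sums moved with the groups, from 159453 and 298063 in CTRL and 538072 and 591370 in I14E to 2773456 and 2024256 in I14V. The members were read with many counts, with a median of 181 CPM over the tubule sums against 24.9 for all probes, a range of 15.2 to 12435 CPM, and at least 95 counts in every tubule sum. In control tubules the 100 members held 7.02% and 7.03% of all counts, and in I14V tubules 2.72% and 1.54%. A level reflects how well a probe binds as well as its RNA, so levels of different probes were not compared with each other.

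In tubules of vehicle-treated kidneys the members were lower on each of the 3 days. The median member had a d1 of -1.01 (quartiles -1.21 and -0.70), a d7 of -1.10 (quartiles -1.35 and -0.91), and a d14 of -1.70 (quartiles -1.97 and -1.55). On day 14 this is a level 3.25-fold below that of control tubules. The same medians over all probes were 0.11, 0.14, and -0.06. These values chose the members and carry no test. The lowest d14 was -3.93, 23 members lay at -2 or less, and 4 at -3 or less. The 3 last members by rank had a d14 of -1.42, -1.42, and -1.41, and the first 3 probes outside had -1.41, -1.41, and -1.41, so the set ends in the middle of a continuous series of probes.

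Most members already lay below control on day 1. At -0.75 or less lay 73 members on day 1 and 90 on day 7, and 69 did so on both days, while 6 did so on neither. In the sums, whose mix of regions differed between days, the level stepped down from day 1 to day 7 to day 14 in 69 members. In the other 31, the level on day 7 was above that on day 1 before the lowest value on day 14. On day 1, 5 members were not below control.

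The sections of a group differed in this fall. The median level of the members was 8.07 and 8.09 in the CTRL sections, 7.35 and 6.44 in I1V, 6.49 and 6.97 in I7V, and 6.48 and 5.77 in I14V. All 6 vehicle sections lay below both control sections, and section 2 was the lower one in I1V and I14V. In the edgeR fit of all 14 tubule sums, 74 members were called lower in I14V than in CTRL, a call being an adjusted p under 0.05 (Benjamini-Hochberg over all probes) with an absolute log2 fold change above 1. Of all probes tested, 2.76% were called lower, and since the rule used this contrast nothing is read from the count. The median fitted log2 fold change was -1.94 for the members and -0.30 for all probes, a shift of all probes that comes with the scaling. The median for the members was -1.69 without section 2 of I14V and -1.74 without section 1 of CTRL, each time with 1 section left in the group.

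**Figure D1:**
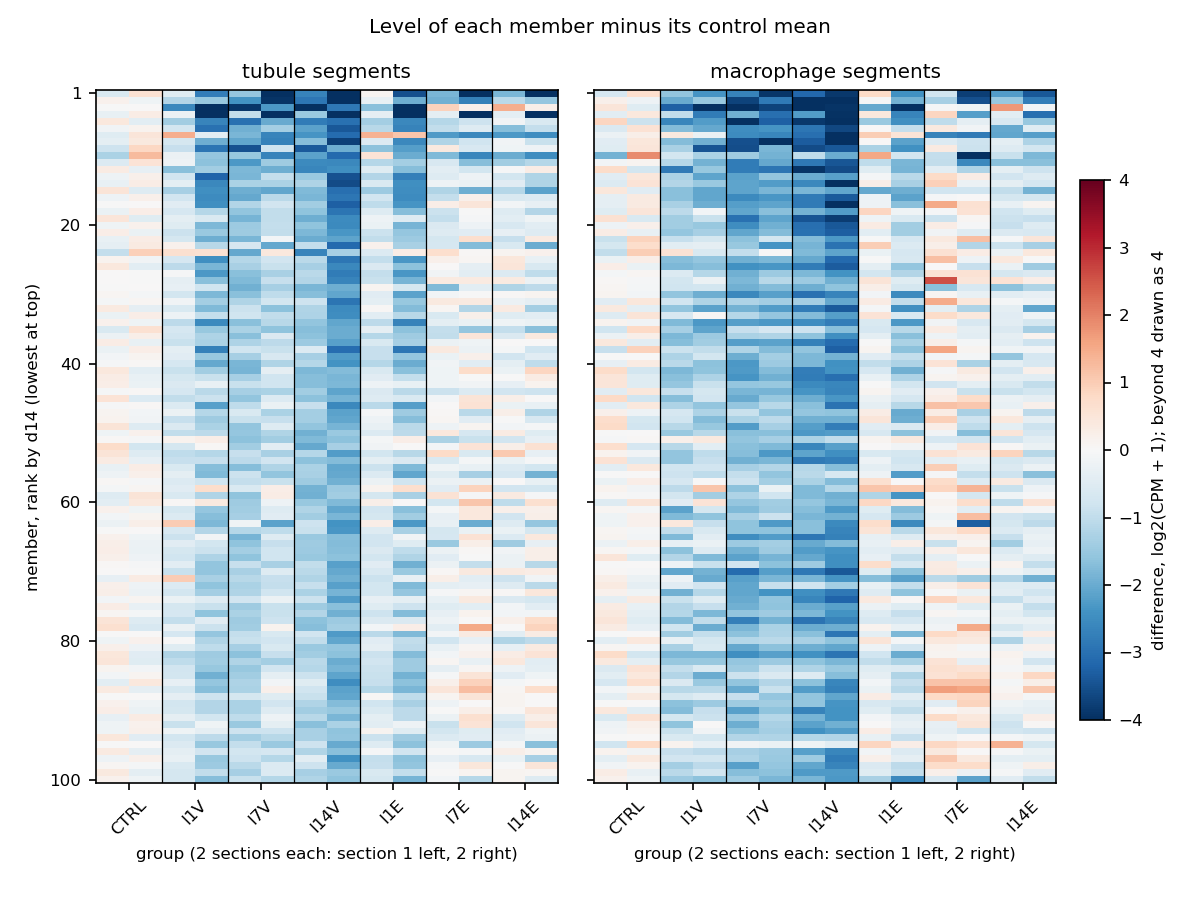
Each row is 1 of the 100 members, ordered by d14, and each column 1 section of the group named below it. Color gives the level in that sum minus the mean of the 2 control sums of the same segment type, in log2(CPM + 1), with differences beyond 4 drawn as 4. Blue fills the vehicle columns in both panels and is deepest in I14V, while I7E and I14E are pale in most rows.

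The fall after injury was deeper in the medulla than in the cortex. A deeper medullary fall raises the difference between cortex and medulla that took part in the choice, so the rule favors it and these values are a description. In medullary tubules of I14V the median member stood at -2.33 against control on the log2 scale, or 5.04-fold lower, and in cortical tubules at -1.36, or 2.56-fold lower. All 100 members were below control in both regions, and 86 had the larger fall in the medulla. Medullary and cortical medians were -2.33 and -0.97 on day 1, and -1.61 and -0.97 on day 7. The medians over all probes in these 6 comparisons lay between -0.07 and 0.24.

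In the medulla the median member level was 7.33 and 7.96 in CTRL, 5.15 and 4.83 in I1V, 5.79 and 5.85 in I7V, and 5.05 and 5.26 in I14V. In cortical tubules the member level was 8.35 and 8.12 in CTRL, 7.57 and 6.54 in I1V, 6.76 and 7.37 in I7V, and 7.05 and 6.38 in I14V. Vehicle sections lay below control sections in both regions at each time. In medullary tubules the median of all probes was 4.83 and 4.83 in I1V and 4.86 and 4.57 in I14V. The median member thus lay close to it there, and whether this limited the size of the falls was not tested.

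The mix of regions in a sum also differed. Medullary regions gave 51.3% and 37.3% of the tubule counts in the CTRL sections, 49.2% and 63.5% in I14V, 38.7% and 30.4% in I7V, and only 18.7% and 11.5% in I1V. The day 1 sum of vehicle-treated kidneys therefore held mostly cortex, and the order of the days depended on it. With cortex and medulla weighted equally, a check added after the data were seen for days 1 and 7, the day 1, 7, and 14 medians were -1.62, -1.28, and -1.75, where the sums gave -1.01, -1.10, and -1.70. Day 14 was then the lowest day in 70 members and day 1 in 30, and 28 rather than 69 members stepped down at each time.

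The lean toward cortex was itself uneven. Over the members the mean difference between cortex and medulla ran from 0.01 to 3.26 with a median of 0.81, against -0.05 for all probes. It was above 1 in 43 members and below 0.5 in 33, and it took part in choosing them. Within control kidneys it was modest, with a median of 0.42 in section 1 and 0.05 in section 2, where 64 and 65 of the 100 members were higher in cortex. In I1V the medians were 2.35 and 1.53, with 99 and 94 members higher in cortex, and in I14V they were 1.86 and 0.73, with 98 and 88. In section 2 of I7E there was no such lean, with a median of -0.01 and 47 members higher in cortex.

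**Figure D2:**
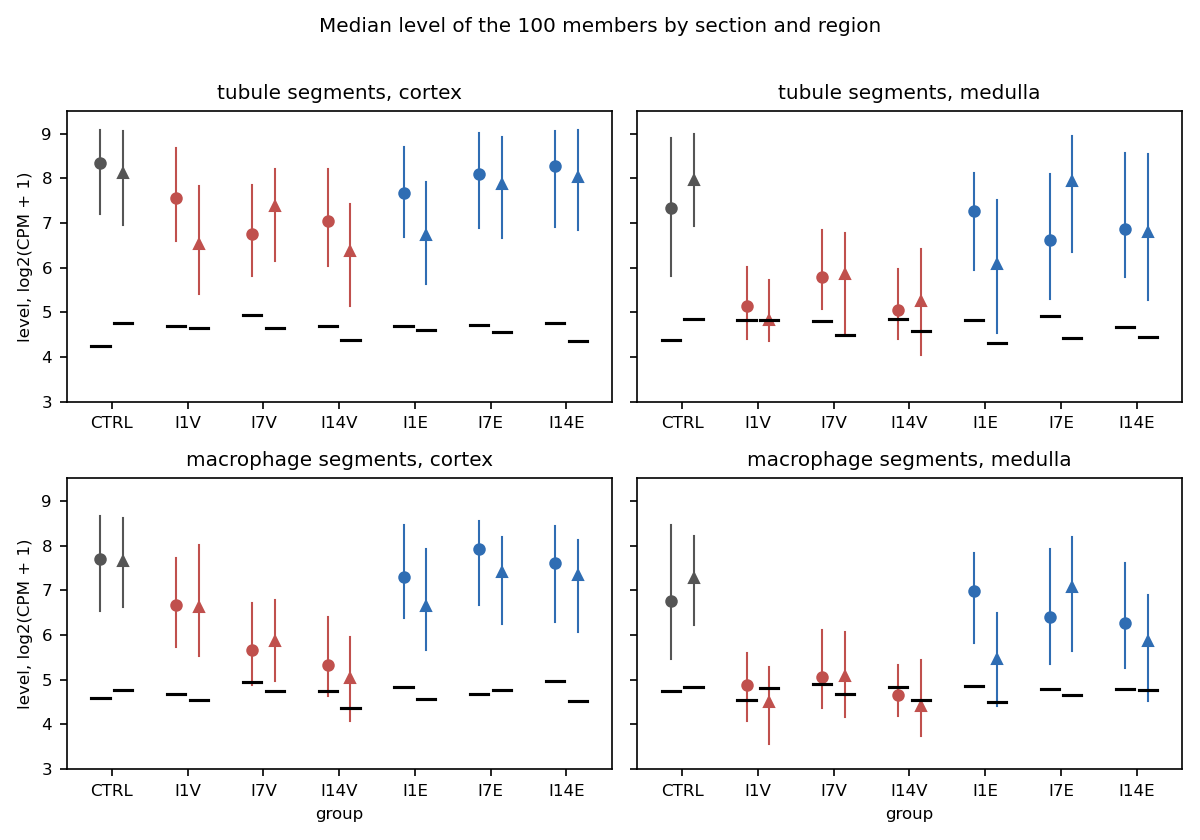
Points give the median level of the 100 members in each section (circle, section 1; triangle, section 2), lines the quartiles over members, and black bars the median of all probes in the same sum, on the log2(CPM + 1) scale. In the tubule medulla the vehicle points (red) lie between 4.83 and 5.85 and the entospletinib points (blue) between 6.09 and 7.94, against 7.33 and 7.96 in control (gray).

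In tubules of entospletinib-treated kidneys the members were low on day 1 and near control from day 7 on. Their median level was 7.37 and 6.50 in the I1E sections, 7.64 and 7.86 in I7E, and 7.75 and 7.74 in I14E. The I1E sections lay beside those of I1V (7.35 and 6.44), whereas both I7E and both I14E sections lay above every vehicle section. Against control, the median member stood at -1.06 in I1E, -0.18 in I7E, and -0.28 in I14E. On day 1, 69 members lay at -0.75 or less, and on day 14, 24 did, while 66 were within 0.5 of control and 29 were above it.

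The 3 entospletinib groups did not enter d1, d7, or d14. Their 6 sections entered the choice of members only through the mean difference between cortex and medulla, so their differences in summed tubule level were tested. That lean makes a summed level depend on the mix of regions. Medullary regions gave 60.4% and 46.5% of the counts in I1E, 46.9% and 27.9% in I7E, and 61.1% and 51.7% in I14E. In cortex alone and medulla alone the members' median log2 fold changes were 0.66 and 0.83 from I1E to I7E. From I1E to I14E they were 0.80 and 0.56. From I1E to I14E the median log2 fold change of the members was 0.73 (quartiles 0.37 and 1.21) against 0.03 for all probes, and 86 of 100 members were higher. By edgeR, 0 members were called higher, where 0.0347% of all probes were, and 1 was called lower, where 0.248% of all probes were. An unadjusted p under 0.05 was reached by 40 members and by 8.72% of all probes. DESeq2 on the same sums called 9 members higher, where it called 0.253% of all probes higher, and 1 lower, where it called 0.535%. With the section number as a replicate block, edgeR called 1 member higher and 1 lower, where it called 26 and 79 of all 20175 probes. From I1E to I7E the median was 0.77, 88 members were higher, and 0 were called higher by edgeR (0.00991% of all probes) and 1 lower (0.233%). In that contrast 40 members had an unadjusted p under 0.05 (8.32% of all probes), and DESeq2 called 5 higher (0.114% of all probes). From I7E to I14E the median was 0.02, with 55 members higher, 0 called by edgeR or DESeq2 (0% of all probes were called higher) and 1 at an unadjusted p under 0.05 (0.753% of all probes). From I1E to I14E the median log2 fold change of the members was 1.18 without section 1 of I1E and 0.58 without section 2. It was 0.76 without section 1 of I14E and 0.80 without section 2.

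On day 14 the members stood far apart between treatments in tubules. In the fit of I14E against I14V, 62 members were called higher, where 2.97% of all probes were, with a median log2 fold change of 1.75 against 0.33 for all probes. The I14V sums of this contrast also chose the members, so a higher level in any other group is built into the choice, and nothing is read from the count. The median for the members was 1.46 without section 2 of I14V and 1.64 without section 2 of I14E. In cortical regions alone, 8 members were called higher, as were 69 of all 20175 probes. In I14E against CTRL the median was -0.25, 33 members were higher, and 0 were called lower by edgeR, where 0% of all probes were. In that contrast 9 members had an unadjusted p under 0.05 (2.01% of all probes), and DESeq2 called 1 lower (0.0297%). The CTRL sums chose the members too, as high values there lower d14, so nothing is read from these counts either. A difference that misses the threshold with 2 sections a group does not show that the levels were alike.

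In medullary tubules the members lay higher with entospletinib than with vehicle already on day 1, a difference left untested because the I1V sums took part in the rule. The median member level in medullary tubules was 7.28 and 6.09 in I1E against 5.15 and 4.83 in I1V, and in cortical tubules 7.66 and 6.72 against 7.57 and 6.54. The difference of the median member from control was thus -1.06 with entospletinib and -2.33 with vehicle in the medulla, and -0.91 and -0.97 in the cortex. Medullary regions gave 60.4% and 46.5% of the tubule counts in I1E. On day 14 the I14E medulla was at 6.86 and 6.79 and its cortex at 8.28 and 8.03. Against control, 41 members lay at -0.75 or less in the I14E medulla (median -0.45) and 11 in its cortex (median -0.09).

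The members that read low in the I14E tubule sums were a part of the set with a stronger cortical lean. The 24 members at -0.75 or less in I14E tubules had a median cortex minus medulla difference of 1.18 and a median d14 of -1.99. The other 76 had 0.66 and -1.68. In macrophage segments, which took no part in this split, the fitted change from CTRL to I14E had a median of -1.06 in the 24 and -0.31 in the 76. The split was made after the values were seen and has no test. Medullary regions gave 61.1% and 51.7% of the tubule counts in I14E against 51.3% and 37.3% in CTRL. A larger medullary share lowers the sum of a member that leans to cortex. How much of the split came from this was not tested. The I14E sections also took part in the cortex minus medulla difference.

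Probe RTS0064967 had the lowest d14. Its tubule level was 305 and 707 CPM in CTRL, 334 and 66.9 in I1V, 158 and 15.9 in I7V, and 72.0 and 11.8 in I14V. With entospletinib it was 498 and 39.99 in I1E, 130 and 24.3 in I7E, and 131 and 21.8 in I14E. Section 2 lay below section 1 in every injured group, by 4.98-fold to 12.5-fold, and above it only in CTRL. Its fit from I14V to I14E gave a log2 fold change of 1.11 with a standard error of 1.60, and none of the fitted contrasts called it.

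Probe RTS0081605 had the second lowest d14. Its tubule level was 871 and 684 CPM in CTRL, 103 and 42.7 in I14V, and 364 and 262 in I14E. The 3 groups did not overlap, and the I14E sections lay between the others. As the probe was named for its d14, a gap between CTRL and I14V is built into the choice, and nothing is read from it. The same choice favors I14E values above I14V and below CTRL. On day 7 it was at 202 and 118 CPM with entospletinib against 147 and 50.2 with vehicle, and those sections overlapped. In macrophage segments it was at 571 and 433 CPM in CTRL, 25.6 and 14.3 in I14V, and 173 and 72.7 in I14E. Its counts there were 91 and 129 in CTRL, 71 and 29 in I14V, and 93 and 43 in I14E. The log2 fold change of macrophage I14V against CTRL was -4.56 with a standard error of 0.87 (edgeR adjusted p = 0.0185).

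Probe RTS0067602, of rank 7, was the member called lower with time under entospletinib. It was named for its small p from I1E to I14E in tubules, so a large change there is built into the choice. Its tubule level was 43.3 and 85.9 CPM in CTRL, 163 and 133 in I1E, 11.8 and 9.39 in I7E, and 11.5 and 10.1 in I14E. Both I1E sections lay above both control sections, and all 4 later ones lay below them. The log2 fold change from I1E to I14E was -3.68 with a standard error of 0.55 (edgeR adjusted p = 0.0364), and from I1E to I7E it was -3.76 with a standard error of 0.56 (edgeR adjusted p = 0.0287). Vehicle-treated tubules ran alike, with 169 and 45.2 CPM in I1V, 16.4 and 8.88 in I7V, and 11.0 and 6.37 in I14V. In macrophage segments the same change from I1E to I14E was -3.04 with a standard error of 0.38 (edgeR adjusted p = 7.91e-06). The level there went from 132 and 94.0 CPM to 14.9 and 13.5, on 67 and 38 counts in I1E and 8 and 8 in I14E. The course of this member, up or level on day 1 and low from day 7 with either treatment, was unlike the median of the set.

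Probe RTS0062202, of rank 89, showed the course of the median member. Its tubule level was 80.6 and 63.5 CPM in CTRL, 41.0 and 28.8 in I1E, 61.4 and 71.7 in I7E, and 77.3 and 72.6 in I14E. Vehicle-treated tubules held 42.3 and 30.9 CPM in I1V, 29.2 and 41.9 in I7V, and 30.5 and 20.6 in I14V. Both I14E sections lay above both I1E sections, with a log2 fold change of 1.21 and a standard error of 0.27 that missed the threshold (edgeR adjusted p = 0.0955). As the probe was named for its small p in this contrast, a gap there is built into the choice, as is a low I14V through d14. Nothing is read from either. In macrophage segments it was at 18.0 and 18.7 CPM in I7V and 36.3 and 93.5 in I7E. The log2 fold change was 1.48 with a standard error of 0.40 (edgeR adjusted p = 0.0176). These levels rest on 22 and 34 counts in I7V and 23 and 11 in I7E, so the difference is one of share in sums of different size.

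**Figure D3:**
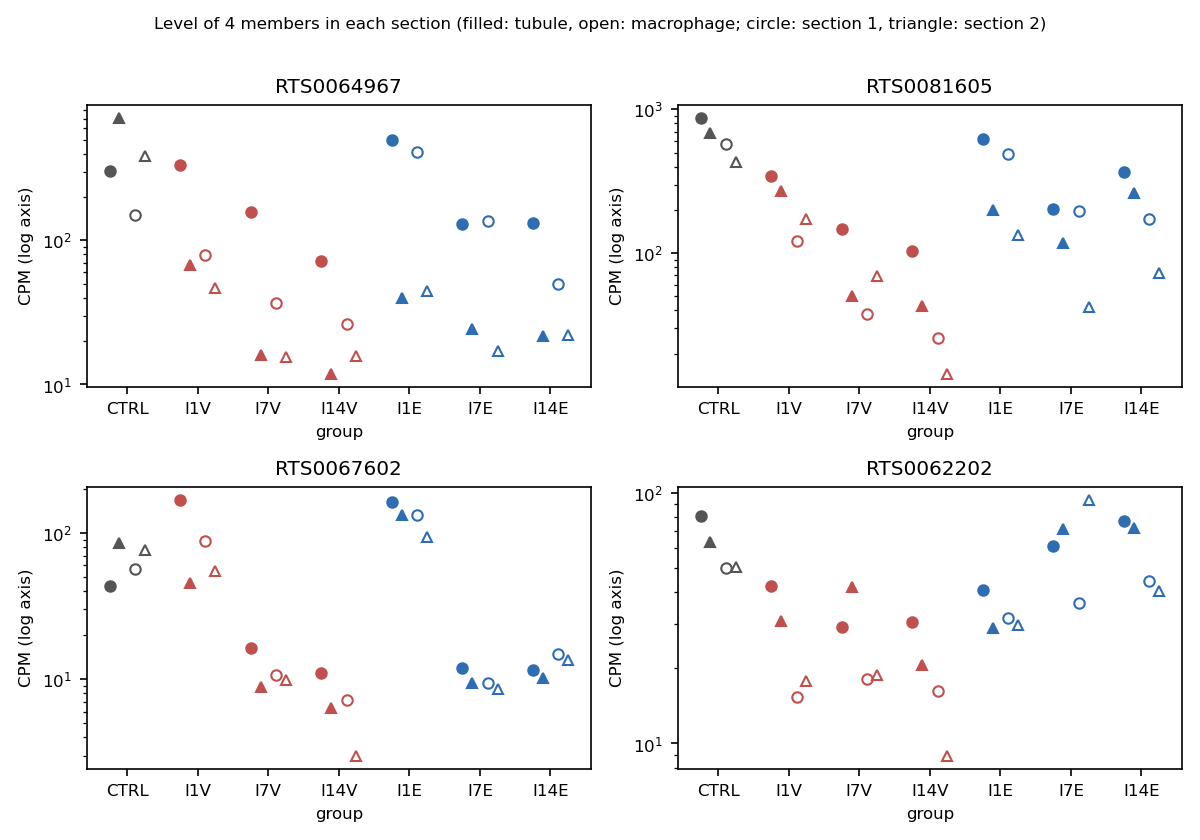
CPM of the 4 members in each section on a log axis (filled, tubule segments; open, macrophage segments; circle, section 1; triangle, section 2). RTS0067602 drops to about the same level on days 7 and 14 with vehicle (red) and entospletinib (blue), whereas RTS0062202 comes back to control level (gray) only with entospletinib. Both probes were named for a small p from I1E to I14E in tubules, and the rule favors a low I14V, so these courses are partly built into the choice.

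Macrophage segments gave separate libraries that the rule did not use, although they came from the same sections as the tubule segments. The members were read there as well, at a median level of 7.24 and 7.50 in the CTRL sections. How much of this came from tubular RNA within or beside IBA1-positive segments was not tested. The member level in macrophage segments was 6.08 and 6.16 in I1V, 5.39 and 5.58 in I7V, and 5.11 and 4.87 in I14V, and both sections of each day lay below both of the day before it. With entospletinib it was 7.08 and 6.28 in I1E, 7.75 and 7.30 in I7E, and 6.94 and 6.94 in I14E. Every entospletinib section lay above every vehicle section. The median of all probes was 4.79 and 4.48 in the I14V sums. In the medullary macrophage sums of I14V the median member lay below that of all probes (4.66 and 4.41 against 4.84 and 4.55).

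The loss of members with vehicle, as a share of the counts, was called in macrophage segments on all 3 days. The median count of a member was 24 and 53.5 in CTRL, 48 and 32 in I1V, 50 and 85 in I7V, and 93 and 57 in I14V. The fold changes below are therefore changes of share in sums of different size. On day 14, 81 of 100 members were called lower than in CTRL, where 3.39% of all probes were called lower, with a median log2 fold change of -2.25 (4.76-fold) against -0.08 for all probes. On day 7, 63 members were called lower, where 1.81% of all probes were, with a median of -1.75. On day 1, 15 members were called lower, where 0.237% of all probes were, with a median of -1.19, and 65 had an unadjusted p under 0.05, as had 10.4% of all probes. All 100 members had a negative fitted change on days 7 and 14, and 95 on day 1. With 1 section left in a group, the day 14 median was -2.31 without section 2 of CTRL. The day 7 median was -1.68 without section 1 of I7V and -1.83 without section 2 of CTRL. The day 1 median was -1.05 without section 1 of I1V, -1.25 without section 2 of I1V, and -0.95 without section 1 of CTRL. The total counts rose with the loss, so all macrophage sums were also thinned to 117693 counts, a check added after the data were seen. Thinning evens out the depth but leaves the make-up of each sum as it was. It therefore cannot tell whether the share of tubular RNA in these segments moved with the totals. Of the 82 members with enough counts left, 66 were then called lower on day 14, 48 on day 7, and 13 on day 1. Of the 3594 probes left, 10.3%, 5.43%, and 1.06% were. The filter keeps a probe that reaches the minimum count in a few sums. A member low with vehicle could thus be kept only through the groups where it was high. This favors calls of a lower level with vehicle, so nothing is read from these counts.

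With entospletinib the members were higher than with vehicle in macrophage segments on days 7 and 14, as a share of the counts. The median count of a member was 135.5 and 18.5 in I7E against 50 and 85 in I7V. On day 14 it was 65.5 and 72 in I14E against 93 and 57 in I14V. On day 7, 66 members were called higher in I7E than in I7V, where 2.56% of all probes were, with a median log2 fold change of 1.96 (3.89-fold) against 0.05 for all probes, and 99 of 100 were higher. On day 14, 69 were called higher in I14E than in I14V, where 2.52% of all probes were, with a median of 1.88 against 0.07, and again 99 of 100 were higher. On day 1 the median was 0.69 and 92 members were higher, but 0 were called by edgeR or DESeq2 (0% of all probes were called higher), with 29 at an unadjusted p under 0.05 (4.76% of all probes). Whether the effect differed between days was not tested. The day 7 median was 1.59 without section 1 of I7E, which left the section with the fewest counts (117693) alone in its group. The day 14 median was 1.68 without section 2 of I14V. After thinning to 117693 counts, 53 of 82 members were called higher on day 7 and 37 of 82 on day 14. Of the 3594 probes left, 6.76% and 5.01% were. Here too, thinning leaves the make-up of each sum as it was, and the filter favors these calls, so nothing is read from them. The comparisons of vehicle with control and of entospletinib with vehicle share the vehicle sums of the same day, so a low vehicle value enters both.

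**Figure D4:**
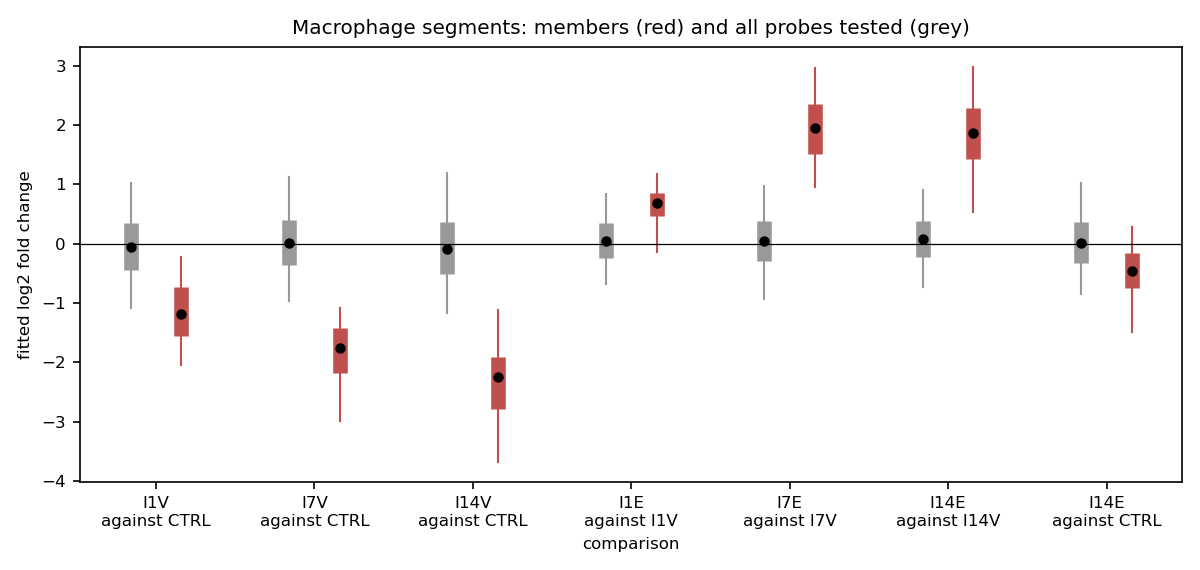
Fitted log2 fold changes in macrophage segments for the members (red) and for all probes tested (gray) in 7 comparisons. Boxes span the quartiles, lines the 5th to 95th percentiles, and dots mark medians, which for the members are -1.19, -1.75, and -2.25 for vehicle against control on days 1, 7, and 14, and 0.69, 1.96, and 1.88 for entospletinib against vehicle.

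The macrophage segments of I14E stood a little below control. Their median log2 fold change against CTRL was -0.45 against 0.01 for all probes, 87 of 100 members were lower, and 0 were called lower by edgeR or DESeq2 (0% of all probes were), with 21 at an unadjusted p under 0.05 (5.33% of all probes). Between I1E and I14E the median was 0.09, 55 members were higher, and 2 were called lower, where 0.28% of all probes were. DESeq2 called 1 in that contrast, and it was higher, as were 0.154% of all probes. The comparisons of I1E and I7E with vehicle and of I14E with CTRL in macrophage segments were added after the data were seen.

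The members were read less in macrophage than in tubule segments of the same section. Over the 6 entospletinib sections the median log2 fold change of macrophage against tubule segments was -0.63 (quartiles -0.76 and -0.38) against -0.09 for all probes, and 98 of 100 members were lower in macrophage segments. With the threshold on size, 3 were called lower, where 0.322% of all probes were, since the typical difference was below 1. On the adjusted p alone, 59 were lower and 1 was higher, where 5.47% of all probes were lower and 4.94% higher. The count of 3 was 10 without section 1 of I1E and 11 without section 1 of I7E, where 112 and 128 of all 20175 probes were called lower. In each of the 14 sections the median member was lower in the macrophage sum, by a difference of -0.13 in section 1 of I7E to -1.42 in section 2 of I7V. In CTRL these differences were -0.66 and -0.55, in I14E -0.81 and -0.81, and in I14V -1.34 and -1.09.

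The regional lean of the members in tubules was also found in macrophage segments. Between medullary and cortical macrophage sums of the same sections, 37 of the 99 members with enough counts were called lower in the medulla, where 0.675% of all probes were, with a median log2 fold change of -0.69 against 0.03 for all probes. Lower fitted levels in the medulla were found for 95 of the 99. Leaving out any 1 of the 14 sections gave counts of 32 to 40, where 77 to 110 of all probes tested were called lower. Across the 99 members, the lean in tubules and the lean in macrophage segments ran together (Pearson's r = 0.93, Spearman's rho = 0.92), a description over probes that share the same regions and sections. The 43 members with a tubule difference above 1 had a median macrophage log2 fold change of -1.43 between medulla and cortex, and the 33 with a difference below 0.5 had -0.37. In contrast, the fitted macrophage loss from CTRL to I14V had a median of -2.25 in both of these groups of members. The median member lay near the median of all probes in I14V, and whether this made the losses alike was not tested.

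**Figure D5:**
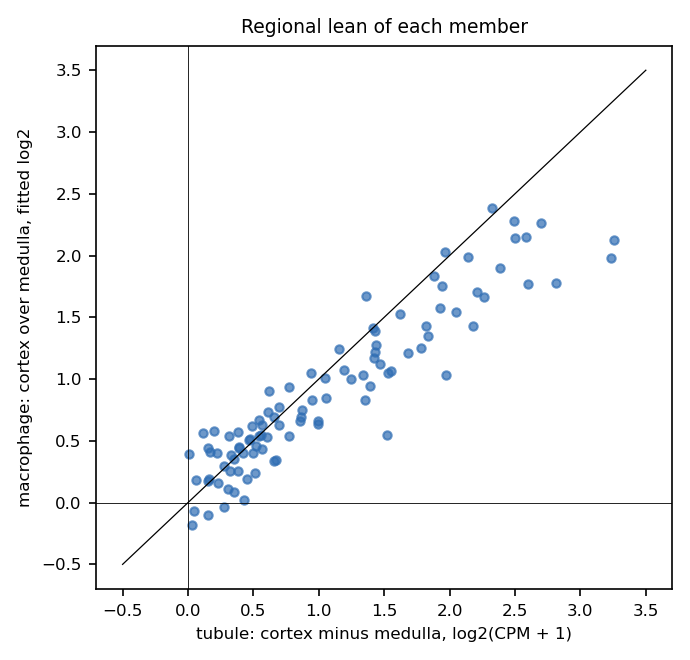
Each point is 1 of 99 members, with its mean tubule difference between cortex and medulla (log2(CPM + 1)) on the x axis and its fitted log2 difference between cortical and medullary macrophage sums on the y axis, and the diagonal marks equal values. The points rise together (Pearson's r = 0.93), and those with the largest lean in tubules lie below the diagonal.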

How the data were processed

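Counts of 94 segments (48 tubule, 46 macrophage) were used. The study left out 2 segments as outliers without naming them in the text, so they may be among these. What the authors deposited were raw UMI counts for every probe, made from the reads by the GeoMx NGS Pipeline (3.1.1.5 in the file headers) and not normalized, before their own background evaluation, filtering, and upper quartile normalization. The submitters' processing notes name the build mm10. No probe was paired with a gene here. In 13 files the unit was entered as other because 2 header values coincide, and they hold the same whole counts.

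Samples were grouped by their labels. All regions of a section and segment type were added together, 2 cortical regions with a second tubule segment included, so that n = 2 sections per group. Members were picked by the rule on log2(CPM + 1). Sums were filtered with filterByExpr (minimum count 10, minimum total 15), which kept 20175 probes in tubules and 18541 in macrophage segments, scaled by the upper quartile, and compared in edgeR 4.0.16 (quasi-likelihood test, robust, two-sided, R 4.3.3) over all 14 sums of a segment type, with Benjamini-Hochberg adjustment over all probes. Macrophage against tubule and medulla against cortex were fitted with the section as a block. A standard error is the size of the log2 fold change over the root of its F statistic. The test scripts were tested on simulated data. Alternatives were TMM scaling, DESeq2 1.42.0 on sums or on regions (shares of all 20175 probes, those without an adjusted p included), no filter, a replicate block, single regions, the adjusted p alone, the most abundant probe left out, and each section left out in turn. The members, lists, and tests were chosen with earlier results of these data known. Named members are the 2 with the lowest d14 and the 2 others with the smallest p for I14E against I1E in tubules.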

Additional observations from a re-analysis of the deposited data

How the results depend on the processing

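Of 217 recomputed values, 161 stayed on the same side, within 1.5 times for counts, 48 moved further, and 8 changed the direction of most calls. The cause of these changes was not tested. The filter kept all 20175 probes in tubules, so leaving it out repeated the main fit there and for macrophage against tubule segments. Tubule I14E against I7E called 0 members in every setting. Such values are among the 161, which is therefore no measure of how firm the results are. In tubules, I14E against I1E called 1 member, but 10 with DESeq2 on the sums and 20 with DESeq2 on regions, most of them higher, 2 with the replicate block, 0 in cortical regions alone, and 0 to 2 with a section left out. I7E against I1E called 1, but 6 and 12 with DESeq2 on sums and regions, most of them higher, and 0 in cortex alone or with any section left out. I14V against CTRL called 74, but 23 in cortex alone and 18 to 81 with a section left out. I14E against I14V called 62, but 8 in cortex alone and 16 to 72 with a section left out. With TMM scaling these last counts were 70 and 52, while the calls over all probes in the same direction fell from 557 to 292 and from 599 to 295. I14E against CTRL called 0, but 1 and 3 with DESeq2 on sums and regions. Over all probes, DESeq2 on regions called 155 of 20171 higher and 130 lower for I14E against I1E, and 64 and 132 for I7E against I1E. In cortex alone, edgeR called 125 of 20175 probes lower for I14V against CTRL and 69 higher for I14E against I14V. The median d14 was -1.70, -2.33 in medulla alone, and -2.08 to -1.40 with a section left out.

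In macrophage segments, I1V against CTRL called 15, but 27 and 29 with DESeq2 on sums and regions, 4 in cortex alone, 36 in medulla alone, and 2 to 18 with a section left out. I7V against CTRL called 63, but 36 in medulla alone and 38 to 54 with a section left out. I14V against CTRL called 81, and 48 to 74 with a section left out. I14E against I14V called 69, but 31 in medulla alone, 37 after thinning, and 44 to 59 with a section left out. I14E against I1E called 2, but 1 with TMM or DESeq2 on the sums, 3 in cortex alone, 8 with regions, 0 after thinning, and 2 to 6 with a section left out. I7E against I7V called 66, and 18 to 64 with a section left out. I1E against I1V called 0 to 3 and I14E against CTRL 0 to 1 with a section left out, and the replicate block gave 1 in the latter. Macrophage against tubule segments called 3, but 32 over all 14 sections, 6 in cortex alone, 35 in medulla alone, 60 on the adjusted p alone, and 2 to 11 with a section left out. Medulla against cortex called 37, and 32 to 40 with a section left out. Over all probes, I1V against CTRL called lower 60 of 20175 and 109 of 20173 with DESeq2 on sums and regions. It called lower 7 of 13172 in cortex alone and 181 of 9439 in medulla alone. In medulla alone, I7V against CTRL called 186 of 9439 lower and I14E against I14V 292 higher. Of 20175 probes, macrophage against tubule segments called 125 lower over all 14 sections, 48 lower in cortex alone, and 313 lower in medulla alone.

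Same-numbered sections did not deviate together throughout. The correlation of their deviations from group means, over probes, was above 0.1 in 15 of 21 pairs of groups in tubules. Its median there was 0.33, with a range of -0.55 to 0.72. In macrophage segments it was above 0.1 in 6 of 21 pairs, with a median of 0.03 and a range of -0.10 to 0.27. Most pairs in tubules thus deviated together, but as not all did, the numbers were not taken as pairs. With the section number as a replicate block, 94 members were called lower in tubules for I14V against CTRL, as were 636 of all 20175 probes. For I14E against I14V, 75 members were called higher, as were 648 of all probes. Where a section was left out, the lone sum of its group was taken to spread as much as the other groups. Calls over all probes moved in these fits as well, so nothing is read from counts with 1 section left in a group. Macrophage sums as low as 117693 counts limit what could be called there.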
